A study of Mus musculus with 12 samples.

Results

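The muscle acetylcholine receptor genes and their companions in denervated and regenerating muscle were followed in mouse hindlimb tissue. They were taken by gene symbol and comprise the receptor subunits Chrna1, Chrnb1, Chrnd, Chrne and Chrng, the synaptic kinase Musk, the transcription factor Myog, the developmental myosins Myh3 and Myh8, and the adhesion molecule Ncam1. These are 10 of the 45777 genes in the deposited table, and all 10 were among the 19740 genes that passed the filter on low counts. Polyadenylated RNA of flash-frozen hindlimb tissue was sequenced in 12 libraries, 4 from limbs with lymphedema (LE), 4 after lymph node transfer (VLNT) and 4 after the transfer combined with ABTAA treatment (VtA). ABTAA is known as a Tie2-activating antibody directed at angiopoietin-2. Libraries are named by group and replicate number, from LE1 to VtA4. Strain, age, sex, the site within the limb, the dose and the time after surgery are not given in the labels, and no limb without lymphedema or surgery was among the libraries analysed here. The labels do not say whether the libraries of a group came from separate animals, so the tests below judge differences against the variation among libraries, part or all of which could be technical.

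At the adult neuromuscular junction, the muscle receptor is a pentamer of alpha, beta, delta and epsilon subunits that opens when motor nerve endings release acetylcholine. Fetal muscle carries the gamma subunit, encoded by Chrng, in place of epsilon, encoded by Chrne. When a fibre loses its nerve, electrical activity stops and Myog and its relatives drive Chrna1, Chrnd, Chrng, Musk and Ncam1 along the whole fibre, while Myh3 and Myh8 are best known from fibres that are being rebuilt.

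Members of the Myod1 family bind E-boxes, with the letters CANNTG, and factors of the Ets family bind the N-box, CCGGAA, of genes read at the synapse. The sequences upstream of the gamma and epsilon genes are shown because these genes carry the contrast of fetal and adult receptor, and those of Chrna1 and Myog because they stand for the subunit shared by both receptors and for the regulator. Each holds the 250 bases before the start site used in the RefSeq table of GRCm38.p6, 5′ to 3′ on the strand of the gene. Capitals mark E-boxes and, in Chrne, the CCGGAA as well. The spans are chr1:87205561-87205810 on the plus strand for Chrng, chr11:70619195-70619444 on the minus strand for Chrne, chr2:73580339-73580588 on the minus strand for Chrna1 and chr1:134289754-134290003 on the plus strand for Myog.
Chrng: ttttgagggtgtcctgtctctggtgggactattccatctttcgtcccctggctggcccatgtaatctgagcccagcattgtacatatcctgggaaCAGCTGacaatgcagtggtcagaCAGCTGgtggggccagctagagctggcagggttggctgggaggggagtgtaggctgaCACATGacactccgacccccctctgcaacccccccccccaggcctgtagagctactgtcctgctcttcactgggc
Chrne: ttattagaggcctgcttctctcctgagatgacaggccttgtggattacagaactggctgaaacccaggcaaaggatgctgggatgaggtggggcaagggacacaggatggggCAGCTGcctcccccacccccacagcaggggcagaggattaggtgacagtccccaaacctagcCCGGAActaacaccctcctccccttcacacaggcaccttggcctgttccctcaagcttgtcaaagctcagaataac
Chrna1: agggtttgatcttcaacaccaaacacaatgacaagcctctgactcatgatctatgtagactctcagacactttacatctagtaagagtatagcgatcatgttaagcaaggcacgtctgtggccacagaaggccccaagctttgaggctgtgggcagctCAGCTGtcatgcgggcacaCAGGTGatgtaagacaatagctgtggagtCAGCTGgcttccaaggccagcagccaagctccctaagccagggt
Myog: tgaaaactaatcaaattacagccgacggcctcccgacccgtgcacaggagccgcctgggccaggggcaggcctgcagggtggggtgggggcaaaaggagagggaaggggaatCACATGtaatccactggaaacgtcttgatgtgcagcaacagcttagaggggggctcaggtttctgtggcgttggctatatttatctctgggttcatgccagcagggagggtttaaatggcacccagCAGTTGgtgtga
In windows that run 50 bases further, into the gene, 8 of the 10 genes had an entry in the table (Chrnd and Ncam1 are only named), and all 8 held CANNTG on either strand. CANNTG occurred in 72.3% of 32851 promoters of that length, so its presence is no mark of these genes. CAGCTG, which is included in CANNTG, was found in Chrna1, Chrne, Chrng and Musk, against 16.3% of all promoters. CCGGAA was found on either strand in Chrne alone among the 8, against 14.9% of all promoters. These matches describe letters and not occupied sites.

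The libraries held between 56042030 and 72540147 counts. Markers of muscle were present in all 12, but the pieces differed in makeup. The mean log2 CPM (read counts scaled to a common library size) of 26 mature muscle genes ranged from 7.87 in LE2 to 12.9 in LE4 within LE, from 10.01 to 12.2 in VLNT and from 12.02 to 12.8 in VtA. The mean of 15 keratinocyte genes was -0.17 in LE4 and 0.29 in VtA1, 5.90 in VtA2, and 7.94 to 9.76 in the other libraries, so that 2 pieces were close to free of epidermis. LE1 stood apart in another way. Its mitochondrial transcripts took 0.433% of the reads, against 7.62% to 25.9% elsewhere. The mean log2 TPM of 10 long muscle transcripts (over 5000 bases) minus that of 11 short ones (up to 2000 bases) was -6.55 in LE1, against -4.70 to -3.40 in the other libraries, a measure chosen after the values were seen. In bulk tissue, fewer muscle fibres and less RNA per fibre cannot be told apart.

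With edgeR's quasi-likelihood test, called at an adjusted p under 0.05, 0 of the 10 genes were called in VLNT against LE, VtA against VLNT or VtA against LE, and the share called among all genes tested was 0% in each. At an unadjusted p under 0.05 the counts were 1, 0 and 0, against 2.01%, 5.66% and 16.5% of all genes. DESeq2 called 0 of the 10 in each comparison, where it called 0.00507%, 0.77% and 4.04% of all genes. For VLNT against LE it gave no adjusted p for Chrng and Myh3, so neither could be called there. For VLNT against LE, 2 of the 10 had a log2 fold change above 0 and 8 below (median -0.22, against 0.01 over all genes). For VtA against VLNT, 9 were above 0 and 1 below (median 0.60, against -0.07), and for VtA against LE it was 5 and 5 (median 0.14, against -0.11). The 26 mature muscle genes had medians of 0.13, 1.07 and 1.23 in the 3 comparisons. For none of the 10 did the 4 libraries of any group lie wholly above or below those of another group in CPM. Of all genes, 0.223% were wholly higher and 0.177% wholly lower in VLNT than in LE, 7.48% and 8.32% in VtA than in VLNT, and 1.43% and 1.27% in VtA than in LE. The comparisons share their libraries in pairs and are not independent of each other.

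**Figure D1:**
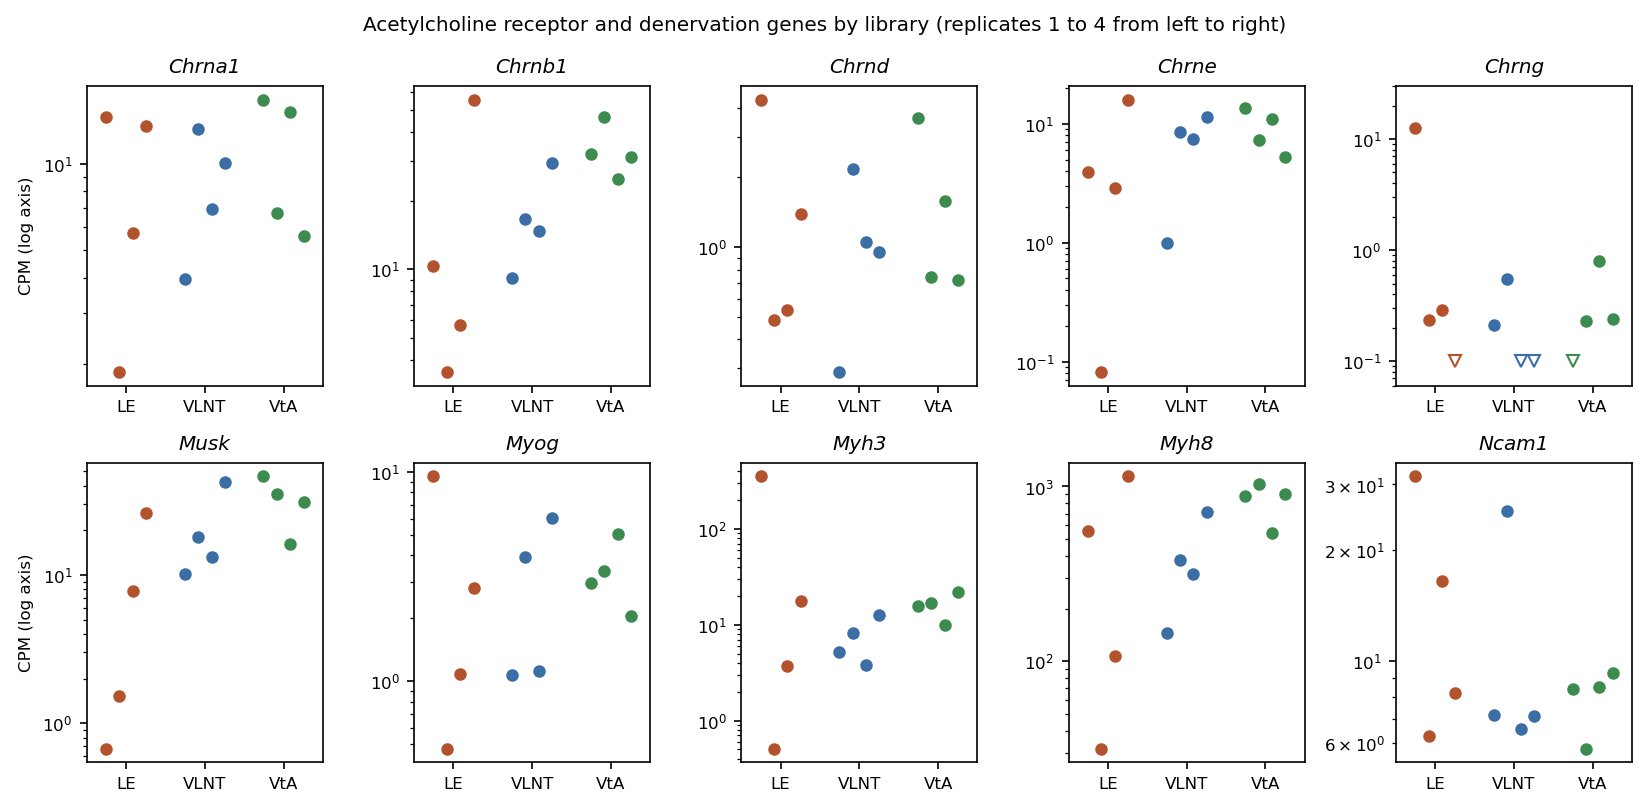
CPM of each gene in each library on a log axis, with the 3 groups side by side and replicates 1 to 4 from left to right; open triangles mark libraries with 0 reads. The groups overlap for each of the 10 genes, and the LE libraries are spread most widely, with LE1 far above the rest for Chrng and Myh3.

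Per length, as TPM (reads scaled by transcript length and library), Myh8 was the most abundant of the 10 in every library, with a median of 131 TPM over the 12 and a range from 15.2 to 221. Chrnb1 followed with a median of 15.8 TPM (4.86 to 29.8) and Chrne with 7.62 TPM (0.138 to 12.5). Musk (4.68 TPM, 0.0951 to 10.3), Chrna1 (3.47 TPM, 1.28 to 5.85), Myh3 (2.77 TPM, 0.246 to 61.3), Ncam1 (2.37 TPM, 1.29 to 6.87) and Myog (2.09 TPM, 0.945 to 7.01) formed a middle band whose ranges overlap. Chrnd (0.527 TPM, 0.196 to 1.52) and Chrng (0.203 TPM, 0 to 6.81) were lowest. The ranges of neighbours in this order overlapped throughout.

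Chrna1, on chromosome 2 (73563281 to 73580338, GRCm38.p6), encodes the alpha subunit that binds acetylcholine. It stood at 14.6, 1.87, 5.70 and 13.6 CPM in LE1 to LE4, at 3.95, 13.2, 6.95 and 10.1 CPM in VLNT1 to VLNT4, and at 16.7, 6.70, 15.1 and 5.58 CPM in VtA1 to VtA4. Each group held both low and high libraries, and the means were 8.93 ± 6.16 (SD, n = 4), 8.54 ± 3.98 and 11.04 ± 5.71 CPM. Its 3 fold changes were smaller than their standard errors. VtA1 and VtA3 were the highest libraries and LE2, the piece poorest in muscle, the lowest.

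Chrnb1, on chromosome 11 (69784036 to 69795966), encodes the beta subunit, which both the fetal and the adult receptor contain. It stood at 10.3, 3.53, 5.70 and 55.7 CPM in LE1 to LE4, at 9.17, 16.6, 14.7 and 29.5 CPM in VLNT1 to VLNT4, and at 32.1, 46.7, 24.8 and 31.1 CPM in VtA1 to VtA4. LE4, the piece richest in muscle, was the highest of all 12, and the other LE libraries were all below the 4 VtA libraries. The log2 fold change was 0.95 ± 0.73 (SE) for VtA against VLNT (edgeR adjusted p = 0.653) and 0.84 ± 0.73 for VtA against LE (adjusted p = 0.486). Without LE4 the latter was 2.34 and passed the threshold (adjusted p = 0.00844), in a fit that called 30.8% of all genes. With the mean of the muscle genes as a covariate it was -0.16 (adjusted p = 0.828), and over the 25 alternatives run the adjusted p ranged from 0.000412 to 0.9998.

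Chrnd, on chromosome 1 (87190597 to 87200070), encodes the delta subunit and was scarce. It stood at 4.33, 0.487, 0.535 and 1.39 CPM in LE1 to LE4, at 0.289, 2.16, 1.05 and 0.956 CPM in VLNT1 to VLNT4, and at 3.601, 0.747, 1.59 and 0.721 CPM in VtA1 to VtA4. These levels rest on 22 to 219 reads a library. LE1 and VtA1 were highest, and the 3 fold changes were within their standard errors.

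Chrne and Chrng carried the contrast between adult and fetal receptor. Chrne lies on chromosome 11 (70614883 to 70619213) and Chrng on chromosome 1 (87205811 to 87211835), beside Chrnd. Chrne stood at 3.97, 0.0811, 2.91 and 16.03 CPM in LE1 to LE4, at 0.997, 8.54, 7.43 and 11.4 CPM in VLNT1 to VLNT4, and at 13.6, 7.32, 11.03 and 5.29 CPM in VtA1 to VtA4. The lowest value, in LE2, was 8 reads in the piece poorest in muscle. Chrng stood at 12.6, 0.233, 0.292 and 0 CPM in LE1 to LE4, at 0.210, 0.554, 0 and 0 CPM in VLNT1 to VLNT4, and at 0, 0.230, 0.793 and 0.240 CPM in VtA1 to VtA4. LE1 alone held 83.1% of the summed CPM of Chrng over the 12 libraries, from 635 reads, and the next highest library, VtA3, had 57 reads. No read was counted in LE4, VLNT3, VLNT4 and VtA1, where 3 reads would have given 0.0634, 0.0358, 0.0462 and 0.0755 CPM.

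The share of Chrng in the reads of Chrng and Chrne together, which does not depend on how much muscle a piece held as long as both come from muscle, split the LE group. It was 76.0% in LE1 (95% Wilson interval 72.9 to 78.7) and 74.2% in LE2 (56.8 to 86.3, from 31 reads). It was 9.12% in LE3 (6.46 to 12.7), 17.4% in VLNT1 (10.998 to 26.4), 6.10% in VLNT2 (4.54 to 8.14), 3.05% in VtA2 (1.75 to 5.25), 6.71% in VtA3 (5.21 to 8.59) and 4.35% in VtA4 (2.61 to 7.16). In LE4, VLNT3, VLNT4 and VtA1 the share was 0. The limit that 3 reads of the pair's total set is 0.395%, 0.482%, 0.405% and 0.557%, and the Wilson upper limits were 0.504%, 0.614%, 0.516% and 0.708%. Chrng thus outnumbered Chrne in LE1 and LE2 and was at most 17.4% of the pair in the other 10 libraries. The intervals cover counting error only. Whether all Chrng reads came from muscle was not tested. The correlation of log2 CPM with the muscle mean was 0.90 for Chrne but -0.33 for Chrng, and -0.32 for Chrng without LE1. LE2, with 23 Chrng reads, had the lowest muscle mean (7.87) and the highest keratinocyte mean (9.76).

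**Figure D2:**
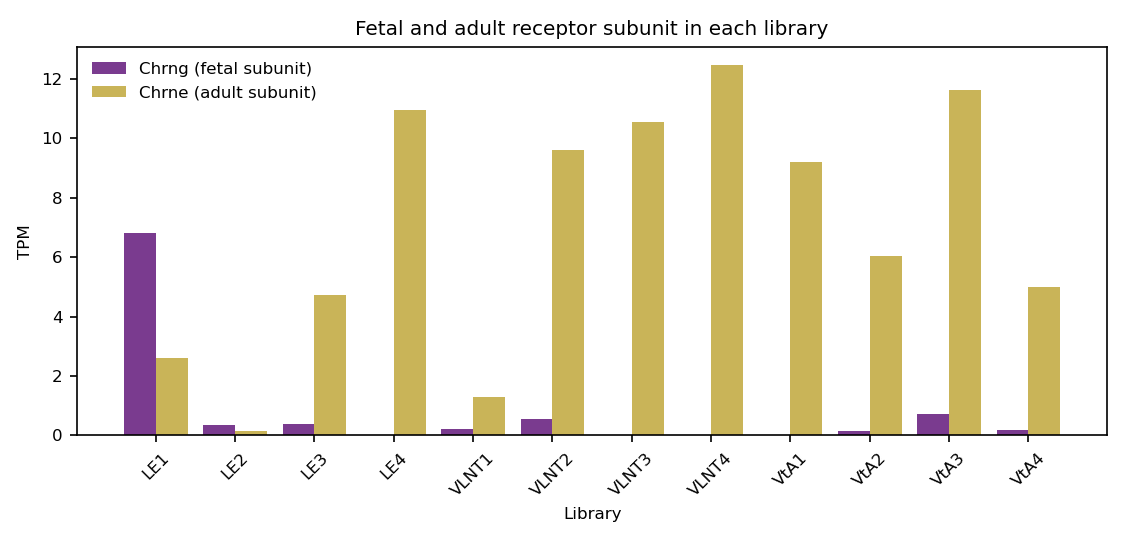
TPM of Chrng (fetal subunit) and Chrne (adult subunit) in each of the 12 libraries, as bars from 0. Chrng exceeds Chrne in LE1 (6.81 against 2.62 TPM) and, at a much lower level, in LE2 (0.347 against 0.138 TPM), and Chrne is the taller bar in the other libraries.

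As a group, LE did not separate from the others on this ratio. The mean log2 ratio of Chrng to Chrne TPM, with a pseudocount of 0.01 TPM, was -2.76 ± 5.41 for LE (± SD, n = 4), -6.74 ± 4.02 for VLNT and -5.95 ± 2.65 for VtA. The pseudocount sets the low values of the libraries with 0 Chrng reads and so bears on these SDs. The differences were -3.98 for VLNT against LE, 0.79 for VtA against VLNT and -3.19 for VtA against LE, each smaller than the SD within LE. For Chrng itself the log2 fold change was -4.08 ± 2.03 (SE) for VLNT against LE (edgeR adjusted p = 0.99992) and -3.34 ± 1.96 for VtA against LE (adjusted p = 0.348). Both rest on LE1: without it they were 0.09 and 0.83, the opposite sign. LE1 is also the library with few mitochondrial reads and low long transcripts, and the part of this in its Chrng value was not tested. The transcripts of Chrng and Chrne share 0% of their 50-base stretches.

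The receptor genes of nerve and other cells were near the lower limit. Of 11 nicotinic subunit genes outside the muscle receptor, 5 passed the filter, and 0 of the 5 were called in any comparison. Chrna2 and Chrna10, which had the highest values in a single library, were named after their values were seen. Chrna2 reached at most 1.64 CPM and Chrna10 at most 1.47 CPM.

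Musk, on chromosome 4 (58285729 to 58377848), encodes the kinase that gathers receptors under the nerve ending. It stood at 0.672, 1.53, 7.74 and 26.3 CPM in LE1 to LE4, at 10.1, 18.0, 13.2 and 42.1 CPM in VLNT1 to VLNT4, and at 46.3, 35.3, 16.1 and 30.9 CPM in VtA1 to VtA4. In contrast to Chrng, Musk was lowest of all in LE1, where its 34 reads gave 0.0951 TPM. The log2 fold change was 1.21 ± 0.90 (SE) for VLNT against LE (edgeR adjusted p = 0.99992) and 1.83 ± 0.92 for VtA against LE (adjusted p = 0.321). Without LE4 the latter was 3.24 (adjusted p = 0.0182), again in the fit that called 30.8% of all genes, and with the muscle covariate it was 0.69 (adjusted p = 0.791); over the 25 alternatives the adjusted p ranged from 0.00242 to 0.9998. Long muscle transcripts were low in LE1, as given above, and their part in the Musk value of LE1 was not tested.

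The other genes of the junction gave no call either: 0 of 20 were called in any comparison. Their numbers above and below 0 were 17 and 3 for VLNT against LE (median 0.35), 11 and 9 for VtA against VLNT (median 0.09) and 14 and 6 for VtA against LE (median 0.45). Rapsn, the scaffold that clusters receptors, had group means (± SD, n = 4) of 11.2 ± 13.8 CPM for LE, 9.60 ± 5.17 for VLNT and 19.3 ± 5.60 for VtA. Dok7, which activates Musk from inside the fibre, averaged 7.74 ± 11.2, 7.20 ± 4.28 and 13.6 ± 4.35 CPM, and Colq, which anchors acetylcholinesterase in the cleft, 4.10 ± 3.98, 5.25 ± 3.11 and 5.75 ± 2.33 CPM. Ache, the esterase, was at 14.2 ± 14.9, 21.2 ± 10.1 and 29.6 ± 5.55 CPM. Agrn, the nerve-derived signal that other tissues also make, showed the reverse spread, from 18.5 CPM in LE4 to 122 CPM in LE2, and its receptor on the fibre, Lrp4, ran from 10.6 CPM in LE4 to 60.0 CPM in VLNT4. For these 6 genes, groups overlapped in each comparison. Among the other junction genes, named after their values were seen, Etv5 was wholly higher in VLNT than in LE, as 0.223% of all genes were. Nrg1 and Cttn were wholly lower in VtA than in VLNT, as 8.32% of all genes were.

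Myog, on chromosome 1 (134290004 to 134292548), encodes myogenin, which drives the differentiation of myoblasts and the receptor genes of inactive fibres. It stood at 9.57, 0.477, 1.08 and 2.81 CPM in LE1 to LE4, at 1.08, 3.92, 1.12 and 6.01 CPM in VLNT1 to VLNT4, and at 2.95, 3.35, 5.08 and 2.04 CPM in VtA1 to VtA4. The group means were close, at 3.48 ± 4.18 (SD, n = 4), 3.03 ± 2.39 and 3.35 ± 1.27 CPM. In CPM, LE1 was the highest library and LE2 the lowest, so the whole CPM range of the study lay inside LE. In TPM the highest value was 7.01 in VLNT, against at most 6.74 in LE. The 3 fold changes were within their standard errors.

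Among 10 satellite cell and myoblast genes, 0 were called, with medians of 0.29, 0.92 and 1.05 for VLNT against LE, VtA against VLNT and VtA against LE. Mymk, which fuses myoblasts into fibres, stood at 6.54 CPM in LE1 and at 0 to 0.896 CPM in the other 11 libraries. Mymx, its partner, was chosen after its values were seen and stood at 5.85 CPM in LE1 against 0 to 0.726 CPM elsewhere. In CPM, LE1 thus had the highest level of both fusion genes, as of Chrng and Myog. Pax7, the marker of quiescent satellite cells, was not high there: it stood at 0.415 CPM in LE1 against 3.70 CPM in LE4 and 2.31 to 5.31 CPM in VtA. Myf5 had 0 reads in LE1, and Myod1 (2.23 CPM) and Myf6 (4.90 CPM) were well below their values of 14.9 and 78.5 CPM in LE4.

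Of 14 genes of denervation signalling, 0 were called, and 5 had an unadjusted edgeR p under 0.05 in VtA against LE, where 16.5% of all genes did. Hdac4, a repressor that carries the denervation signal, had group means (± SD, n = 4) of 24.1 ± 9.35 CPM for LE, 40.8 ± 28.2 for VLNT and 42.1 ± 12.03 for VtA. Gadd45a, which rises in denervated mouse muscle, stood at 43.9 CPM in LE1 and at 7.33 to 16.7 CPM in the other 11 libraries. In TPM the gap was smaller, with at most 37.4 in LE, 27.8 in VLNT and 22.8 in VtA. Dach2, a repressor of Myog that is high in innervated muscle, had a log2 fold change of 3.03 ± 1.03 (SE) for VtA against LE (edgeR adjusted p = 0.288), with 14.5 CPM in VtA1 and 1.40 to 2.02 CPM in the other VtA libraries. Hdac9, which represses the same synaptic genes in innervated muscle, had a log2 fold change of 1.65 ± 0.61 (adjusted p = 0.288). Runx1, which rises on denervation and is also read in skin and immune cells, had -2.27 ± 0.70 (adjusted p = 0.288), and it was lowest in the epidermis-poor LE4 (2.30 CPM) and VtA1 (2.67 CPM). The other two of the 5 genes were named after their values were seen, and both rise on denervation. Kcnn3, a calcium-activated potassium channel, had 2.096 ± 0.93 (adjusted p = 0.297), with 1.34 to 3.37 CPM in VtA against 0 to 0.972 CPM in LE, so that the groups did not overlap, as for 1.43% of all genes in that direction. Fbxo32, a ubiquitin ligase of muscle atrophy, had 1.75 ± 0.78 (adjusted p = 0.298), with 181 to 523 CPM in VtA and 36.0 to 296 CPM in LE. In VtA against VLNT, Hdac9 was wholly higher and Runx1 wholly lower, as 7.48% and 8.32% of all genes were. Genes that rise on denervation thus had fold changes in both directions, and none of these 5 passed the adjusted threshold.

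Myh3, on chromosome 11 (67078273 to 67102291), encodes embryonic myosin heavy chain. It stood at 356, 0.507, 3.74 and 17.5 CPM in LE1 to LE4, at 5.14, 8.23, 3.797 and 12.7 CPM in VLNT1 to VLNT4, and at 15.6, 17.0, 10.03 and 22.0 CPM in VtA1 to VtA4. LE1, with 18019 reads, held 75.4% of the summed CPM, and the other 11 libraries ranged from 0.507 to 22.0 CPM. The log2 fold change was -3.66 ± 1.44 (SE) for VLNT against LE, with an unadjusted edgeR p of 0.0259 and an adjusted p of 0.99992. It was -2.55 ± 1.37 for VtA against LE (adjusted p = 0.332). Both turned sign without LE1, to 0.05 and 1.16.

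Myh8, further along the same chromosome (67277124 to 67308634), encodes perinatal myosin heavy chain and had another pattern. It stood at 560, 31.6, 108 and 1146 CPM in LE1 to LE4, at 146, 380, 315 and 711 CPM in VLNT1 to VLNT4, and at 877, 1039, 541 and 901 CPM in VtA1 to VtA4. LE4 was highest and LE2 lowest, the same ends as for the muscle genes as a whole. The log2 fold change for VtA against VLNT was 1.11 ± 0.87 (SE, edgeR adjusted p = 0.653), beside a median of 1.07 for the 26 muscle genes, and with the muscle covariate it was -0.02.

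Set against Myh4, the myosin of adult fast fibres, both developmental chains stood out in LE1. Myh8 TPM was 4.55% of Myh4 TPM in LE1 and 1.16% to 1.57% in the other 11 libraries. Myh3 TPM was 2.94% of Myh4 TPM in LE1 and 0.0159% to 0.0540% elsewhere. The steady ratio of Myh8 to Myh4 outside LE1 was measured with reads that can be hard to place: 16.7% of the 50-base stretches of Myh8, and 5.15% of its 100-base stretches, occur in another myosin heavy chain transcript examined (GENCODE M21), and 7.26% and 1.12% occur in Myh4. For Myh3 the shares over the family were 4.76% and 1.13%, and 0.909% and 0% with Myh4. How reads that fit several genes were counted is not given in the sources used here.

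**Figure D3:**
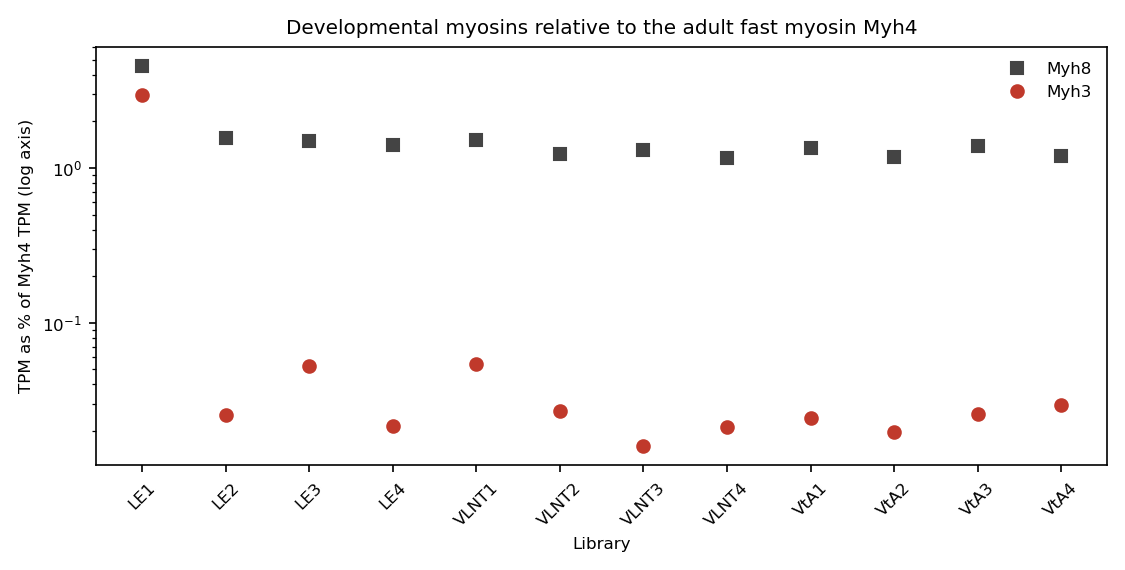
TPM of Myh3 and Myh8 as a percentage of Myh4 TPM in each of the 12 libraries, on a log axis. LE1 is highest for both, at 2.94% and 4.55%; Myh8 is between 1.16% and 1.57% and Myh3 between 0.0159% and 0.0540% in the other 11.

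Of 10 other developmental muscle genes, 5 had their highest CPM in LE1 and 5 in another library. This is not particular to them, since 5 of 10 macrophage genes and 5 of 15 keratinocyte genes also peaked in LE1. The same held for 3 of 26 mature muscle genes and 0 of 20 other junction genes, and the share over all genes was not computed. Of the 10 developmental genes, 0 were called, and the medians were -0.35, 0.73 and 0.56 for VLNT against LE, VtA against VLNT and VtA against LE. Myl4, an embryonic and atrial myosin light chain, stood at 443 CPM in LE1 and at 1.89 to 25.2 CPM in the other 11 libraries. Tnnt2, the troponin T of heart and fetal muscle, stood at 177 CPM in LE1 and at 0.766 to 4.64 CPM elsewhere. Their log2 fold changes for VLNT against LE were -4.57 ± 1.43 (SE) and -4.08 ± 1.28, with edgeR adjusted p = 0.99992 for both. Actc1, cardiac alpha-actin, did not share this: it stood at 78.8 CPM in LE1, 156 CPM in LE4, and 101 to 394 CPM in VtA. Igfn1, of the same list and named after its values were seen, reached 30.4 TPM in LE1 but 58.7 TPM in VtA2.

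Of the adult myosins, Myh4, which like Myh1 and Myh2 is one of the 26 mature muscle genes, had group means (± SD, n = 4) of 25373 ± 36913 CPM for LE, 30865 ± 21265 for VLNT and 66024 ± 20413 for VtA. Myh1 and Myh2, of other fast fibres, were lowest in LE2 and LE3 and highest in VtA1, at 6862 and 4664 CPM. Myh7, the slow-fibre and cardiac chain, varied within each group, from 2.40 to 125 CPM in LE, 5.26 to 370 CPM in VLNT and 48.3 to 498 CPM in VtA.

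Ncam1, on chromosome 9 (49502129 to 49799393), encodes an adhesion molecule that covers denervated fibres and is also made by nerve, Schwann cells and satellite cells. It stood at 31.6, 6.27, 16.5 and 8.22 CPM in LE1 to LE4, at 7.18, 25.5, 6.58 and 7.11 CPM in VLNT1 to VLNT4, and at 8.44, 5.80, 8.51 and 9.27 CPM in VtA1 to VtA4. The VtA libraries were close together, and LE1, LE3 and VLNT2 stood above all others. The log2 fold change for VtA against LE was -0.97 ± 0.57 (SE, edgeR adjusted p = 0.349), and -0.37 without LE1.

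Schwann cells are another source of Ncam1. Of 12 of their markers, 0 were called, with medians of 0.12, 0.47 and 0.52 for VLNT against LE, VtA against VLNT and VtA against LE. The list took between 0.00554% and 0.0315% of the reads of a library. Among the libraries with the most Ncam1, it took 0.00938% in LE1, 0.0294% in LE3 and 0.0262% in VLNT2, so it was low in LE1 and in the upper part of the range in the other two. Sox10, a factor of Schwann cells, had 0 reads in LE1 and 3.34 CPM in VLNT2, and Ngfr, high in Schwann cells without axons, 0.712 and 3.34 CPM. The part of Schwann cells in the Ncam1 values was not tested.

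**Figure D4:**
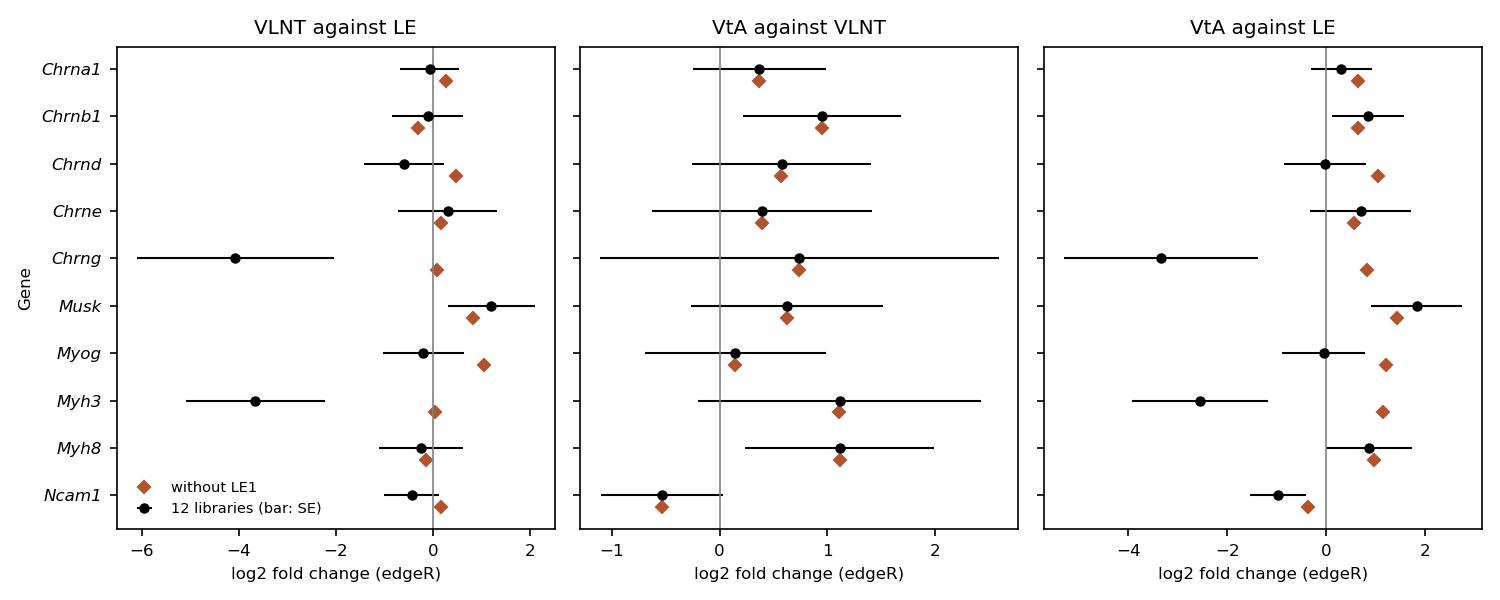
Log2 fold change of each gene in the 3 comparisons from edgeR with all 12 libraries (black, bar: SE) and without LE1 (diamonds). Chrng and Myh3 lie at -4.08 and -3.66 for VLNT against LE with all libraries and near 0 without LE1; values for VtA against VLNT barely move.

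Since the pieces held different amounts of muscle, each gene was also set against the mean log2 CPM of the 26 mature muscle genes in its own library. On this log2 scale, Ncam1 lay between -5.56 and -5.22 in LE1 to LE3, at -9.90 in LE4, between -9.36 and -6.99 in VLNT and between -10.28 and -8.93 in VtA. Chrna1 lay between -6.95 and -6.67 in LE1 to LE3, at -9.18 in LE4, between -8.86 and -7.93 in VLNT and between -10.07 and -8.10 in VtA. Both were thus highest relative to muscle in the LE pieces other than LE4. This scale raises a gene that does not follow muscle wherever muscle is low, and LE2 and LE3 had the lowest muscle means (7.87 and 9.46). The correlation with the muscle mean was -0.13 for Ncam1 and 0.72 for Chrna1. In CPM, LE2 ranked 12 of 12 for Chrna1 and 11 of 12 for Ncam1. The group differences for VtA against LE were -2.98 for Ncam1 and -1.75 for Chrna1, with SDs within LE of 2.26 and 1.17.

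Chrnb1 and Myh8 kept the steadiest relation to the muscle genes. Chrnb1 lay between -7.71 and -6.04 on this scale over the 12 libraries, and all 4 VtA libraries were below the 4 LE libraries (-7.45 ± 0.18 against -6.83 ± 0.53, SD, n = 4), which held for 1.51% of all genes in that direction. It was the only member and comparison with no overlap on this scale. Over all genes the shares wholly higher and wholly lower were 0.0253% and 0.111% for VLNT against LE and 0.0101% and 22.5% for VtA against VLNT, and 0.0456% were wholly higher for VtA against LE. Set against the mean of Acta1, Ckm and Mylpf alone, the difference was -0.24 in place of -0.63 and the groups overlapped. Myh8 lay at -1.41 in LE1 and between -3.09 and -2.59 in the other 11 libraries. Musk lay at -11.05 in LE1 and between -8.23 and -6.50 elsewhere, so it was low in LE1 on this scale too. Myog lay at -7.28 in LE1 and between -11.44 and -8.85 elsewhere. Chrnd lay at -8.42 in LE1, at -8.83 in LE2 and between -13.19 and -10.29 in the other 10. Against Acta1, Ckm and Mylpf alone, LE1 was less apart for Myh8, at -3.99 beside -4.12 in VtA4. Chrnd was then highest in LE2, at -10.65, with -10.99 in LE1. LE1 stayed lowest for Musk (-13.63) and highest for Myog (-9.85).

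**Figure D5:**
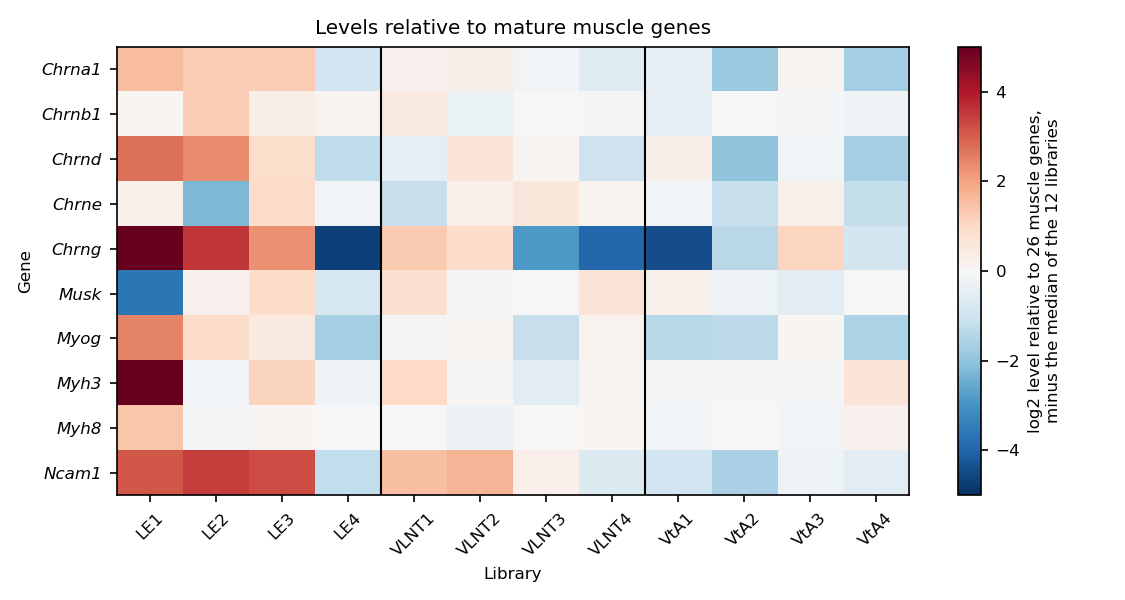
Log2 level of each gene relative to the mean of 26 muscle genes, minus the median of the 12 libraries, as colours cut off at -5 and 5; vertical lines part LE, VLNT and VtA. LE1 is high for Chrng and Myh3 and low for Musk, and Ncam1 is high in LE1 to LE3; the blue Chrng cells of LE4, VLNT3, VLNT4 and VtA1 are libraries with 0 reads, whose value depends on the prior count.

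With the muscle mean as a covariate, 0 of the 10 genes were called in any comparison. Leaving LE1 out as well, a setting chosen after the data were seen, gave 0 calls again, and the log2 fold changes of Myh3 were 0.04 for VLNT against LE and 0.18 for VtA against LE. Of the alternatives run, limma voom with sample weights called the most members. They were Chrnb1 and Myh8 for VLNT against LE (6.9% of all genes called), Chrnb1 for VtA against VLNT (18.3%), and Chrnb1, Chrne, Musk, Myog, Myh3 and Myh8 for VtA against LE (53.9%). Without LE4 and VtA1, the pieces poor in epidermis, edgeR called Chrnb1 and Musk for VtA against LE, where 19.7% of all genes were called; leaving out LE1 as well, chosen after the data were seen, added Myh3 and Myh8 (26%).

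The genes whose log2 CPM ran most closely with each member over the 12 libraries were found by Pearson's r among genes with a mean of at least 1 CPM; these values describe libraries that share depth and tissue makeup. For Chrne they were Colq (r = 0.98), Prr29 and Ddit4l, and for Chrna1 Colq (r = 0.92), Gm11716 and Gm44502, so that the same synaptic gene led for both. Chrnb1 ran with Gm12537 (r = 0.996), Gm7336 and Gm3222, and Myh8 with Cdh15 (r = 0.994), Tnnt3 and Klhl40. Musk ran with Neb (r = 0.98), Gm14412 and LOC102631993, Myog with Nat14 (r = 0.92), Tigd5 and Dmac1, and Chrnd with Rdm1 (r = 0.88), Pak1 and Tmem243.

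The partners depended on LE1 for most members. Without it, 0 of the 3 stayed the same for Chrnd, Musk, Myh3 and Myh8, 1 for Chrnb1, Chrng, Myog and Ncam1, and 2 for Chrna1 and Chrne. Musk then ran with Eya4 (r = 0.99), Ppp1r3c and Lrp2bp, Myh8 with Pfkm (r = 0.999), Myh4 and Pygm, and Chrnd with Lpl (r = 0.90), Gm35001 and Pln, while Pkm (r = 0.998) led for Chrnb1. Chrng ran with Chst12 (r = 0.92), Bik and Zfp57 over all 12 libraries, and with Wnt10b (r = 0.92), Igfbp4 and Chst12 over the 11 without LE1. Myh3 ran with Camk1 (r = 0.97), Prxl2b and Cmc2, and without LE1 with Mstn (r = 0.99), Gm46085 and Myl1. Ncam1 ran with Mfge8 (r = 0.89), Ccn1 and Pofut2. The correlation with the muscle mean itself was 0.98 for Chrnb1, 0.96 for Myh8 and 0.90 for Chrne, against -0.33 for Chrng and -0.13 for Ncam1. Without LE1 it went from 0.52 to 0.95 for Myh3 and from 0.78 to 0.95 for Musk.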

How the data were processed

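The 12 mouse hindlimb libraries were made from mRNA with Illumina's stranded TruSeq kit, per the labels' protocols. The submitters' processing notes list HISAT2 (2.1.0) and StringTie (2.1.3b) beside Trimmomatic and bcl2fastq (2.20.0), and as builds mm10 and GRCh38, with no word on what each was for. Whether counting used strand, and how reads with several matches were treated, is not given in the sources used here. Per the file headers, the table deposited by the authors gives raw read counts, FPKM and TPM for each gene and library. The deposited counts served for the main tests, the deposited TPM, which the authors scaled by length and library, for levels between genes, ratios and an alternative test, and the deposited FPKM were not used. All 12 libraries matched a column by name.

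EdgeR 4.0.16 in R 4.3.3 fitted 19740 genes over 12 libraries with TMM normalization, the default filter, group means and quasi-likelihood tests, 2-sided, with Benjamini-Hochberg adjustment over all genes of a comparison. A gene was called under 0.05. CPM are counts scaled to a common TMM-adjusted library size, and log2 CPM carry a prior count of 2. Standard errors come from the test statistic. The common dispersion was 0.470. DESeq2 1.42.0 and limma 3.58.1 gave alternatives, as did other normalization, filters, covariates and left-out libraries. The fit was tested on simulated data. Of 18 pairs of libraries within groups 0 were identical, and each differed beyond counting error, so each was kept as its own sample.

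The members and lists were chosen with earlier results of these data known. The genes named are the 10 members, genes of the other lists fixed by name (of the synapse Agrn, Lrp4, Rapsn, Dok7, Colq and Ache, and likewise for the denervation, satellite cell, developmental, adult myosin and Schwann cell lists), and the 3 genes most like each member; others are said to be named after their values were seen, and 2 genes fixed by name are not reported here. With all 12 libraries, edgeR called none of the members or of the genes of the other lists. Of the gene IDs, 45679 matched RefSeq's table of GRCm38.p6, which gives the positions and, for 8 members, the promoters. Genes that overlap a member held 0 or 1 counts in each library. Wilson intervals and limits from 3 counts cover counting error only. Library depth was 56042030 to 72540147 counts.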

Additional observations from a re-analysis of the deposited data

Results flagged for a closer look

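Within groups of 4 libraries, 4 of the 33 sets of values screened held a library whose distance from its nearest neighbour took up most of the range. The cutoff gives about 1 in 20 by chance for normally distributed values only. The 4 sets are CPM without a log, which need not be so distributed, so their number was not judged against chance. Chrng stood at 12.6 CPM in LE1 and at 0 to 0.292 CPM in LE2 to LE4. Myh3 stood at 356 CPM in LE1 and at 0.507 to 17.5 CPM in the others of the group. Chrnb1 stood at 55.7 CPM in LE4, the LE piece with the most muscle and almost no epidermis, and at 3.53 to 10.3 CPM in LE1 to LE3. Ncam1 stood at 25.5 CPM in VLNT2 and at 6.58 to 7.18 CPM in the others of VLNT.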

How the results depend on the processing

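The comparisons were recomputed under 23 other settings and 2 more chosen after the data were seen. The number of calls varied with the tool and with LE4. DESeq2 called 1 gene in VLNT against LE, 152 in VtA against VLNT and 797 in VtA against LE, with 0 members in each. Chrng and Myh3 had no adjusted p from DESeq2 in VLNT against LE. Limma voom with sample weights called 1362, 3606 and 10639 genes and 2, 1 and 6 members. With only the 2 groups in the fit, 1 gene was called in VtA against VLNT. Without LE4 and VtA1 together, 1 gene was called in VtA against VLNT, and 4004 genes and 2 members (19.7% of all genes) in VtA against LE; leaving out LE1 as well gave 5466 genes and 4 members, Chrnb1, Musk, Myh3 and Myh8 (26% of all genes). Leaving out each library in turn gave 0 genes called in VLNT against LE in each fit, 0 to 10 in VtA against VLNT and 0 to 6288 in VtA against LE, and 0 to 2 members in the last; 10, 6288 and the 2 members, Chrnb1 and Musk, came without LE4.

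Of the 10 fold changes of members that exceed their standard error, those of Chrng and Myh3 turned sign most. Chrng in VLNT against LE ran from -5.49 to 0.089 when libraries were left out in turn, the latter without LE replicate 1, and was 1.87 with the muscle covariate and LE1 left out. In VtA against LE it ran from -4.37 to 0.83 (without LE replicate 1), and was 3.46 with the muscle covariate and LE1 left out, 0.65 without LE1, LE4 and VtA1, and 0.28 with a replicate block. Myh3 in VLNT against LE ran from -4.07 to 0.047 (without LE replicate 1), and was 1.49 by voom, 0.039 with the covariate and LE1 left out, and 1.79 without the 3 libraries. In VtA against LE it ran from -2.98 to 1.16, and was 3.04 (adjusted p = 0.00485), 0.18 and 2.90 (adjusted p = 0.0378) in the same order and 0.14 by limma on log2(TPM + 0.1); its adjusted p ranged from 0.00485 to 0.9998 over all settings. Myh8 in VtA against VLNT was -0.019 with the muscle covariate, and Chrnb1 in VtA against LE was -0.16, and -0.26 with LE1 left out too. For settings that do not leave out a library the cause was not tested. The other 20 of 30 fold changes, within their standard errors, each turned sign in at least 1 setting.

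The replicate block called 0 genes in each comparison. Deviations of same-numbered libraries had correlations from -0.43 to 0.56. This mixed range does not settle whether the numbers pair the samples, since deviations can also follow tissue makeup. The log2 ratio of Chrng to Chrne moved by less than the SD between libraries in each alternative. That margin is wide, as the pseudocount sets the low values of the 4 libraries with 0 Chrng reads, so it shows little about stability. A pseudocount of 0.1 TPM gave -2.97 for VLNT against LE in place of -3.98. Leaving out each library in turn gave -6.42 to -2.60 for VLNT against LE, -0.40 to 2.21 for VtA against VLNT and -5.64 to -1.81 for VtA against LE. Depth limits Chrng in 4 libraries with 0 reads and the pair of Chrng and Chrne in LE2, with 31 reads.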
